A study of Homo sapiens with 6 samples.

Results

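Cells detect double-stranded RNA with a small set of sensors, relay the signal through IRF factors to interferon genes, and answer interferon with a large set of interferon-stimulated genes. The 41 genes described here were taken by name from the 58735 genes of the FPKM table, and each had exactly 1 row. They comprise 7 sensors with their adaptor and ligase, 2 interferons, 5 IRF and STAT factors, the 4 IFIT genes and 23 other effectors. They were measured by RNA-seq in HCT116 cells, an established human colorectal cancer line of epithelial origin. The 3 control libraries (control-transfected cells, labelled genotype WT, CTR) were set beside 3 libraries of HCT116 cells that received 50 nM miR-8485 mimics. The supplementary methods give collection at 48 h after transfection or at other stated times, and name no separate time for RNA-seq. The sequence and dose of the control transfection are not given in the sources used here.

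In this pathway DDX58 (RIG-I) and IFIH1 (MDA5) are cytosolic helicases that bind double-stranded RNA and signal through MAVS on mitochondria, and TLR3 binds it in endosomes and signals through another adaptor. EIF2AK2 encodes PKR, a kinase that binds double-stranded RNA and halts translation, and the OAS enzymes bind it and make oligoadenylates. Interferons then act through a complex that holds STAT2 and IRF9 on the promoters of genes such as the IFIT family, ISG15 and MX1. Some of these genes, the IFIT genes among them, can also be switched on by IRF3 directly, without interferon.

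The transfected RNA and the letters it pairs with are shown first, an order chosen after the values were seen. The 2 largest falls among the 41 genes were in genes that carry the seed match of this RNA. A miRNA recognizes mRNAs mainly through its seed, bases 2 to 8, set in capitals in the mimic below.
miR-8485 mimic: cACACACAcacacguau
The match of this seed is TGTGTGT. In the longest annotated 3′ UTR of each gene (GENCODE release 44, hg38), OAS3 held 19 overlapping copies, EIF2AK2 4, IFIT5 3, IFIT1 and DTX3L 2 each, and PARP14 1. The other 21 of the 27 members tested below held 0. Over all tested genes with an annotated 3′ UTR, 3224 of 10674 (30.2%) held at least 1 copy. The longest run of alternating T and G in each of these 3′ UTRs is given next, in capitals, with flanking bases in lower case. For OAS3 the first 30 of the 34 bases of the run are printed.
OAS3, chr12:112972880-112972909, plus strand: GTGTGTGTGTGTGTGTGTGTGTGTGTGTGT
EIF2AK2, chr2:37102626-37102647, minus strand: ccatccTGTGTGTGTGcacata
IFIT5, chr10:89419926-89419948, plus strand: tatgtaTGTGTGTGTGTtttact
DTX3L, chr3:122575076-122575095, plus strand: ttgcacTGTGTGTGacatgc
IFIT1, chr10:89403877-89403895, plus strand: acagaaTGTGTGTatgcat
PARP14, chr3:122728821-122728839, plus strand: tgcaacTGTGTGTccacaa
The canonical 3′ UTRs of these 6 genes held the same numbers of copies. A match of letters is a description and not a measured site of action, and the 3′ ends in use in HCT116 were not measured.

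The second set of sequences is the interferon-response motif of the promoters, since members that rose and members that fell both carry it. GAAANNGAAA, the core of the interferon-stimulated response element, was searched on both strands, with overlapping copies counted, from 250 bases before to 50 bases after each start site (RefSeq, GRCh38.p14). Of the 33 members matched in this table, 21 (63.6%) held the motif, against 1195 of 27305 genes (4.38%). DHX58, IRF3, IRF7, IFIT2, MX2, OAS2, OASL and USP18 were not matched. In the sequences below, the motif is in capitals, and it reads TTTCNNTTTC where it lies on the other strand.
IFIT1, chr10:89392497-89392526, plus strand: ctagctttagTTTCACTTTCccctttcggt
IFIT3, chr10:89327831-89327860, plus strand: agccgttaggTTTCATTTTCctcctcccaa
ISG15, chr1:1013374-1013403, plus strand: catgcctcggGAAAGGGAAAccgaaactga
IFI6, chr1:27672329-27672358, minus strand: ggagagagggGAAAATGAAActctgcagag
OAS3, chr12:112938321-112938350, plus strand: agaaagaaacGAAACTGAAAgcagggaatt
EIF2AK2, chr2:37156967-37156996, minus strand: agtccaagggGAAAACGAAActgagaacca
IFIT1, IFIT3, ISG15 and IFI6 are the 4 matched members that rose, and all 4 held the motif. For IFIT3, which has 2 start sites in the table and the motif at both, the window of the upstream one is shown. Of the 8 members that fell, EIF2AK2, OAS3, IFIT5 and DTX3L held it, while DDX58, TRIM25, IRF1 and HERC6 did not. Of the 10 matched members that were tested and not called, 6 held it. The motif was therefore present in promoters of genes that moved in either direction or passed no test.

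Library depth lay between 17473874 and 18480047 fragments on listed genes. The FPKM values of each library resolved into whole fragments for 100% of genes above 0, so fragments are given for low genes. CTR replicate 1 stood apart from its group over all tested genes. Its fragment counts had a chi-square per gene of 12.5 against CTR replicate 2 and 9.97 against CTR replicate 3. The other pairs of libraries within a group had 2.89 to 4.31. Epithelial identity was checked against fixed markers. KRT19, KRT8, KRT18, EPCAM, CLDN4, CLDN7 and CDH1 were above a mean of 1 FPKM and VIL1 was near 0. The 8 epithelial markers together summed to 2739 to 2971 FPKM in CTR and 1863 to 1953 FPKM in miR-8485. They did not move alike. KRT19, KRT8, KRT18 and CLDN4 were lower in every miR-8485 library than in every CTR library. CLDN7 was higher, with 54.3 to 56.3 FPKM in CTR and 71.5 to 75.3 FPKM in miR-8485, and the groups of EPCAM and CDH1 overlapped. None of the 9 leukocyte markers had a mean of 1 FPKM or more, with CD3E and CLEC4C at 0, and their sum was 1.38 to 1.92 FPKM in CTR and 0.839 to 1.21 FPKM in miR-8485. Of 7 fibroblast and endothelial markers only COL1A1 was above 1 FPKM, and their sum was 4.45 to 4.67 FPKM in CTR and 6.60 to 6.66 FPKM in miR-8485. Fragments from mitochondrial genes made up 7.94% to 10.2% in CTR, lowest in replicate 1, and 10.6% to 11.3% in miR-8485. The part of these shifts in the values below was not tested, and in bulk RNA fewer cells of a type and less RNA per cell cannot be told apart.

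Differences were tested with limma on log2(FPKM + 0.1) for the 12349 genes with a mean of at least 1 FPKM over the 6 libraries. A gene is said to rise, fall or be called when its p, adjusted by Benjamini-Hochberg over all these genes, was under 0.05. Of the 41 members, 27 were tested in this way, 10 lay below 1 FPKM with at least 10 fragments in all, and 4 had fewer than 10 fragments. Among the 27, 6 rose (22.2%), against 29.1% of all tested genes, and 8 fell (29.6%), against 30.5% of all tested genes. Together 51.9% of the 27 were called, against 59.6% of all tested genes. CTR and miR-8485 values did not overlap for 7 members that were higher and 9 that were lower, against 32.5% and 34.0% of all tested genes and 66.5% in either direction. The shares lay near or below those of the transcriptome and are no result about these genes. The members had a median difference of 0.040 on the log2 scale, where all tested genes had -0.0041. IFIT2 and IFIT3 had CTR means under 1 FPKM and passed the filter through their miR-8485 values, so they enter these counts because they were high. By role, 3 of 5 tested sensors, adaptor and ligase fell and 0 rose, 1 of 4 tested IRF and STAT factors rose and 1 fell, 3 of 4 IFIT genes rose and 1 fell, and 2 of 14 tested other effectors rose and 3 fell.

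**Figure D1:**
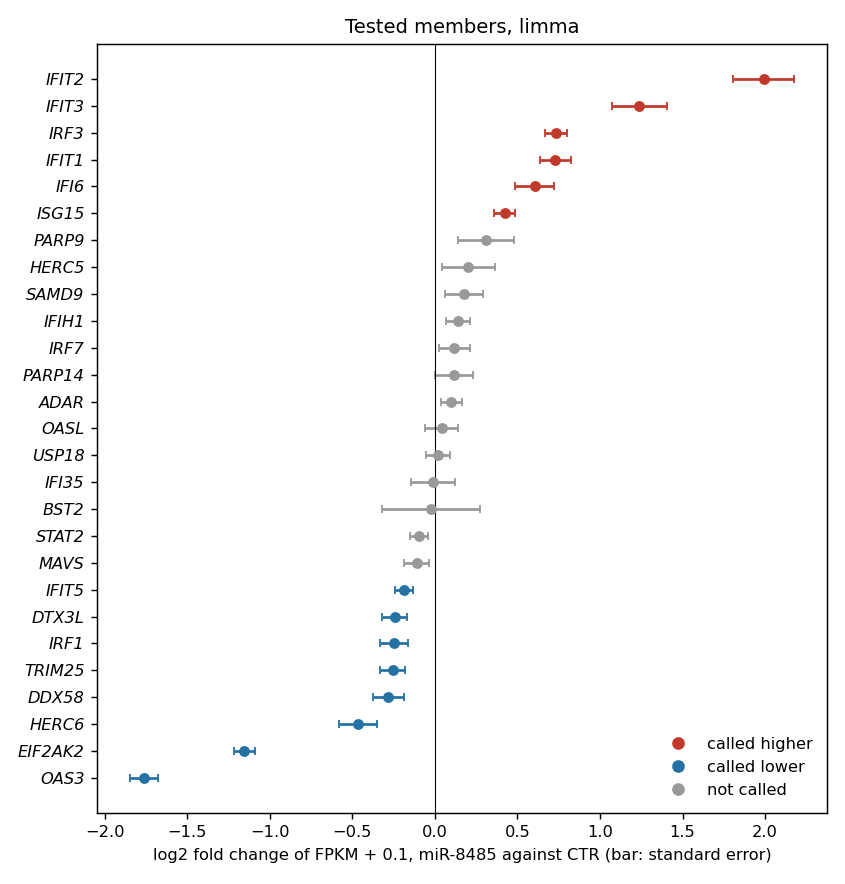
Log2 fold change of FPKM + 0.1 between miR-8485 and CTR for the 27 tested members, 1 row per gene, with bars for the standard error and colors for the limma call. OAS3 (-1.76) and EIF2AK2 (-1.15) lie farthest to the left and IFIT2 (1.99) and IFIT3 (1.24) farthest to the right.

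Among the sensors, EIF2AK2 (chromosome 2, 37099210 to 37157065, minus strand) changed most. It had 6.82, 7.59 and 7.31 FPKM in CTR replicates 1 to 3 and 3.25, 3.16 and 3.17 FPKM in miR-8485 replicates 1 to 3. Every miR-8485 library was less than every CTR library, and the miR-8485 libraries lay within a narrow band. The means were 7.24 ± 0.387 FPKM (SD, n = 3) and 3.19 ± 0.0457 FPKM (SD, n = 3), 2.27-fold lower with the mimic. The log2 fold change was -1.15 (SE, the standard error, 0.06, limma adjusted p = 9.3e-06), and leaving out single libraries gave -1.20 to -1.12. A fall of at least 1 on the log2 scale was called for 4.49% of all tested genes. Its neighbour GPATCH11, which overlaps it by 35 bases on the other strand, had a log2 fold change of -0.15 and was not called.

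The other sensors moved less. DDX58, with 4.01, 4.64 and 4.34 FPKM in CTR and 3.29, 3.37 and 4.004 FPKM in miR-8485, had a log2 fold change of -0.28 (SE 0.10, limma adjusted p = 0.0368). The groups did not overlap, but miR-8485 replicate 3 nearly reached CTR replicate 1. The call was lost without CTR replicate 2 (adjusted p = 0.113) or 3 (0.085) and without miR-8485 replicate 1 (0.113) or 2 (0.106). TRIM25, a ubiquitin ligase that promotes RIG-I signalling, had 17.1, 19.99 and 20.5 FPKM in CTR and 15.3, 16.5 and 16.2 FPKM in miR-8485. Its log2 fold change was -0.26 (SE 0.08, limma adjusted p = 0.0211), and the call was lost without CTR replicate 2 (adjusted p = 0.0671) or 3 (0.070) or miR-8485 replicate 1 (0.0697). Removal of the gene length trend left TRIM25 at -0.15 (adjusted p = 0.075). Both genes thus stood below CTR in every miR-8485 library, by amounts that 1 library could decide.

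IFIH1, the sensor of long double-stranded RNA, went the other way without passing the test. It had 2.57, 2.59 and 2.61 FPKM in CTR and 2.90, 2.88 and 2.82 FPKM in miR-8485, and the groups did not overlap. Its log2 fold change was 0.14 (SE 0.07, limma adjusted p = 0.126), and it was past the threshold only when the variance trend was left out of the fit (adjusted p = 0.0354). MAVS, the adaptor shared by DDX58 and IFIH1, had 15.5, 18.9 and 18.3 FPKM in CTR and 16.1, 15.9 and 16.7 FPKM in miR-8485. CTR replicate 1 was the lowest of all 6 libraries, and MAVS was not called (log2 fold change -0.11, limma adjusted p = 0.250). When CTR replicate 1 was left out, MAVS had -0.20 and was called (adjusted p = 0.0101). TLR3 and DHX58, a regulator of the other helicases, were scarce, with 27 to 49 and 22 to 41 fragments per library. Their log2 fold changes of 0.12 and 0.23 were not past the threshold in the limma fit of all 31768 genes above 0, with adjusted p = 0.831 and 0.613.

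The interferons themselves were at or near 0. IFNB1 had 0 fragments in all 6 libraries, and a count of 0 allows up to 3 fragments in a library, or 0.183 to 0.194 FPKM. IFNL1 had 1 fragment in CTR replicate 2 and 1 in miR-8485 replicate 3. No difference in either was detectable at this depth, and such limits cover counting error only. Of 18 other interferon genes, 11 were at 0 throughout, 6 had 1 to 5 fragments in all, and only IFNE was tested. IFNE, an interferon of epithelia, had 37, 45 and 36 fragments in CTR and 24, 16 and 12 in miR-8485. It fell from 1.48 ± 0.184 to 0.644 ± 0.242 FPKM (SD, n = 3), with a log2 fold change of -1.13 (SE 0.28, limma adjusted p = 0.0096). It passed the filter through its CTR values, and the fit of all genes above 0 gave adjusted p = 0.026.

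IRF3, the factor that sensors activate to switch on interferon and early response genes, rose. It had 18.4, 17.7 and 15.8 FPKM in CTR and 30.4, 27.6 and 28.4 FPKM in miR-8485, with no overlap. The mean went from 17.3 ± 1.32 to 28.8 ± 1.45 FPKM (SD, n = 3), 1.67-fold higher, and the log2 fold change was 0.73 (SE 0.07, limma adjusted p = 8.6e-05). IRF3 (chromosome 19, 49659569 to 49665875, minus strand) overlaps BCL2L12 on the other strand by 734 bases, so fragments of that stretch cannot be told apart unless strand was used. BCL2L12 moved oppositely, with a log2 fold change of -0.26 (limma adjusted p = 0.0127). IRF3 activity depends on phosphorylation, which RNA-seq does not measure.

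Of the factors that answer interferon, only IRF1 was called. It had 2.83, 2.76 and 3.15 FPKM in CTR and 2.48, 2.41 and 2.41 FPKM in miR-8485, and a log2 fold change of -0.25 (SE 0.08, limma adjusted p = 0.0339). The call was lost without CTR replicate 1 (adjusted p = 0.0503) or 3 (0.109) and without miR-8485 replicate 1 (0.065), 2 (0.0821) or 3 (0.0842). It was also lost when replicate number entered as a block, and with the gene length trend removed, where IRF1 had -0.16 (adjusted p = 0.12). STAT2, part of the complex that carries the interferon signal to the nucleus, had 7.13, 7.32 and 7.59 FPKM in CTR and 6.58, 6.99 and 7.01 FPKM in miR-8485. Its groups did not overlap, but the log2 fold change of -0.10 was not past the threshold (limma adjusted p = 0.161). IRF7, which amplifies interferon production, had 3.60 to 4.33 FPKM in CTR and 3.89 to 4.55 FPKM in miR-8485 (log2 fold change 0.12, adjusted p = 0.303). IRF9, the DNA-binding partner of STAT2, had only 19 to 37 fragments per library and overlapping groups.

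The IFIT genes, which lie side by side on chromosome 10 between 89283694 and 89421001 and whose proteins bind foreign RNA ends, split by member. IFIT2 had 0.609, 0.485 and 0.633 FPKM in CTR and 2.24, 2.47 and 3.09 FPKM in miR-8485, from 45, 36 and 47 to 165, 183 and 241 fragments. Its mean was 4.51-fold higher, and the log2 fold change was 1.99 (SE 0.18, limma adjusted p = 8.7e-05). Only 53 of the 12349 tested genes, IFIT2 included, had a log2 fold change as high. In the fit of all genes above 0, where no filter on level applies, the value was the same with adjusted p = 4.6e-04. A pseudocount of 1 in place of 0.1 gave IFIT2 a value of 1.19.

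IFIT3, which binds and stabilizes IFIT1, followed with 1.11, 0.754 and 1.03 FPKM in CTR and 2.62, 2.30 and 2.25 FPKM in miR-8485. These values rest on 36 to 53 and 110 to 124 fragments. The mean was 2.48-fold higher, with a log2 fold change of 1.24 (SE 0.17, limma adjusted p = 5.6e-04) and adjusted p = 0.0025 in the fit of all genes above 0. With a pseudocount of 1 the IFIT3 value was 0.79. IFIT1 had 1.86, 1.81 and 1.89 FPKM in CTR and 3.34, 2.84 and 3.26 FPKM in miR-8485, 1.70-fold higher in the mean. Its log2 fold change was 0.73 (SE 0.09, limma adjusted p = 4.3e-04). For all 3 genes the groups were clearly apart, and the calls held with each library left out. Rises of at least 1 on the log2 scale were called for 3.58% of all tested genes.

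IFIT5, the most abundant of the 4 in CTR, did not rise. It had 7.09, 7.20 and 6.85 FPKM in CTR and 6.39, 6.22 and 5.90 FPKM in miR-8485, every one less than every CTR value. The log2 fold change was -0.19 (SE 0.06, limma adjusted p = 0.0204), and the call was lost without CTR replicate 2 (adjusted p = 0.0667) or miR-8485 replicate 3 (0.0752). Rescaling to TPM gave IFIT5 -0.31. In CTR the levels ran in the order IFIT5, IFIT1, IFIT3, IFIT2, with no overlap between neighbours. In miR-8485 IFIT5 stayed highest, and IFIT2 overlapped both IFIT1 and IFIT3. The annotated span of LIPA, on the other strand, covers IFIT1, IFIT2 and IFIT3. LIPA had 12.0 FPKM in CTR and 13.6 FPKM in miR-8485 (log2 fold change 0.19, limma adjusted p = 0.0257), and whether its fragments were kept apart by strand is not given in the sources used here.

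**Figure D2:**
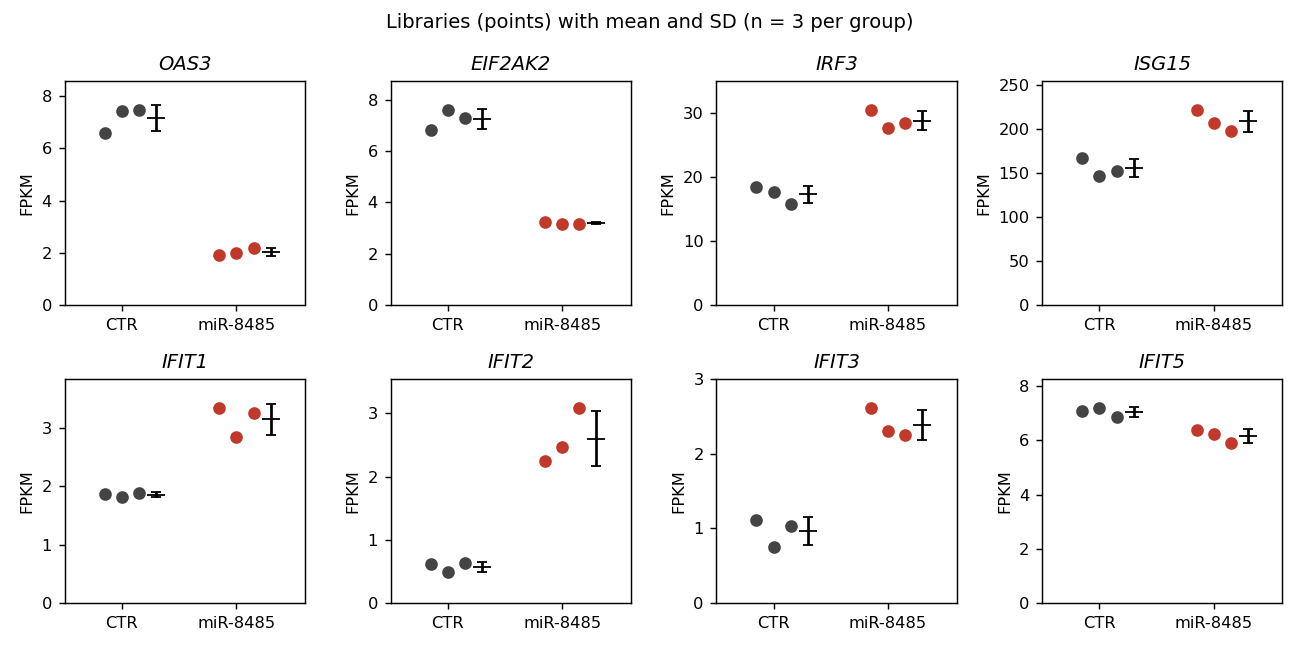
FPKM of OAS3, EIF2AK2, IRF3, ISG15 and the 4 IFIT genes in each of the 6 libraries (points, linear axes from 0), with mean and SD per group (n = 3). In all 8 panels the groups do not overlap. OAS3, EIF2AK2 and IFIT5 are lower and the other 5 genes are higher in miR-8485.

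OAS3 (chromosome 12, 112938352 to 112973249, plus strand), an oligoadenylate synthetase of the OAS family, had the largest fall of all members. It had 6.57, 7.44 and 7.45 FPKM in CTR and 1.93, 1.99 and 2.20 FPKM in miR-8485, from 978 to 1113 fragments down to 286 to 345. The means were 7.15 ± 0.503 and 2.04 ± 0.139 FPKM (SD, n = 3), 3.51-fold lower with the mimic. The log2 fold change was -1.76 (SE 0.08, limma adjusted p = 5.3e-06), and leaving out single libraries gave -1.82 to -1.73. A log2 fold change as low was seen in 115 of the 12349 tested genes, OAS3 included. Its neighbours in the cluster were near the limit of detection. OAS1 had 26, 32 and 35 fragments in CTR and 27, 19 and 24 in miR-8485, and OAS2 had 4 to 7 and 1 to 4. OASL, a relative on the same chromosome that lacks synthetase activity and enhances RIG-I signalling, had 4.02, 5.22 and 4.27 FPKM in CTR and 4.35, 4.65 and 4.82 FPKM in miR-8485 and was not called (log2 fold change 0.04, adjusted p = 0.756).

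ISG15, a ubiquitin-like protein attached to other proteins, was the most abundant member. It had 167, 147 and 152 FPKM in CTR and 221, 207 and 197 FPKM in miR-8485, with no overlap. The log2 fold change was 0.42 (SE 0.06, limma adjusted p = 9.7e-04), and rescaling to TPM gave 0.31. With the gene length trend removed it was 0.19 (adjusted p = 0.0041). HERC5, its ligase, had 2.63, 2.32 and 2.03 FPKM in CTR and 2.27, 2.52 and 3.36 FPKM in miR-8485 (log2 fold change 0.20, adjusted p = 0.308), a spread set mainly by miR-8485 replicate 3. USP18, which removes ISG15 and dampens the interferon receptor, had 4.07 to 4.31 FPKM in CTR and 3.98 to 4.62 FPKM in miR-8485 (log2 fold change 0.02, adjusted p = 0.844). HERC6, a relative of HERC5, fell from 3.03, 2.33 and 2.81 FPKM to 1.90, 1.99 and 1.91 FPKM, a log2 fold change of -0.47 (SE 0.11, limma adjusted p = 0.0094).

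IFI6, an interferon-induced mitochondrial protein that protects from apoptosis, rose from 17.0, 12.7 and 16.6 FPKM to 25.6, 21.7 and 22.8 FPKM. The log2 fold change was 0.61 (SE 0.12, limma adjusted p = 0.0033), and CTR replicate 2 was the lowest library. Removal of the gene length trend left IFI6 at 0.37 (adjusted p = 0.011). DTX3L and PARP9, partner proteins in DNA repair and interferon signalling that are encoded head to head, did not move together. DTX3L had 3.20, 3.01 and 3.21 FPKM in CTR and 2.53, 2.72 and 2.66 FPKM in miR-8485 (log2 fold change -0.24, SE 0.07, limma adjusted p = 0.0249). The DTX3L call was lost without CTR replicate 1 (adjusted p = 0.0609) or 3 (0.0719) or miR-8485 replicate 1 (0.0752) or 3 (0.0587). PARP9 had 1.24, 1.46 and 1.78 FPKM in CTR and 1.66, 1.76 and 2.20 FPKM in miR-8485 and overlapping groups (log2 fold change 0.31, adjusted p = 0.156). The difference between the log2 fold changes of the pair was not tested, and the genes overlap by 340 bases on opposite strands.

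ADAR, which edits double-stranded RNA and keeps the cell's own duplexes from being sensed, was second in level to ISG15. It had 27.0, 31.0 and 30.5 FPKM in CTR and 30.1, 32.6 and 32.0 FPKM in miR-8485 and was not called (log2 fold change 0.10, adjusted p = 0.215). SAMD9, an antiviral factor that halts translation, PARP14, an ADP-ribosyltransferase, IFI35, an interferon-induced leucine zipper protein, and BST2, a tether of budding virions, were not called either, with log2 fold changes between -0.02 and 0.18. In all, the 13 tested members that were not called had log2 fold changes between -0.11 and 0.31 and adjusted p between 0.126 and 0.950 in limma. A p that misses the threshold does not show that a gene was unchanged.

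Several well-known interferon markers were nearly silent in both groups. XAF1, a partner of an apoptosis inhibitor, had 0 fragments in all 6 libraries, which allows up to 0.0238 to 0.0252 FPKM, and IFI44L had 1 fragment in all. MX2, a GTPase that blocks retroviruses, OAS2, and RSAD2, the radical enzyme viperin, had 16, 24 and 43 fragments over the 6 libraries. IFI27 had 95, 44 and 64 fragments in CTR and 58, 33 and 35 in miR-8485, and IFI44 had 11 to 18 and 11 to 25, with overlapping groups for both. MX1, an antiviral GTPase, was the single member below 1 FPKM whose groups did not overlap, with 10, 18 and 16 fragments in CTR and 24, 29 and 30 in miR-8485. Its log2 fold change was 0.51, with adjusted p = 0.307 in the limma fit of all genes above 0. Of the 9057 genes at this level with at least 10 fragments, 26.9% had groups that did not overlap and 6.51% were called, whereas 0 of the 10 members at this level were called by limma.

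**Figure D3:**
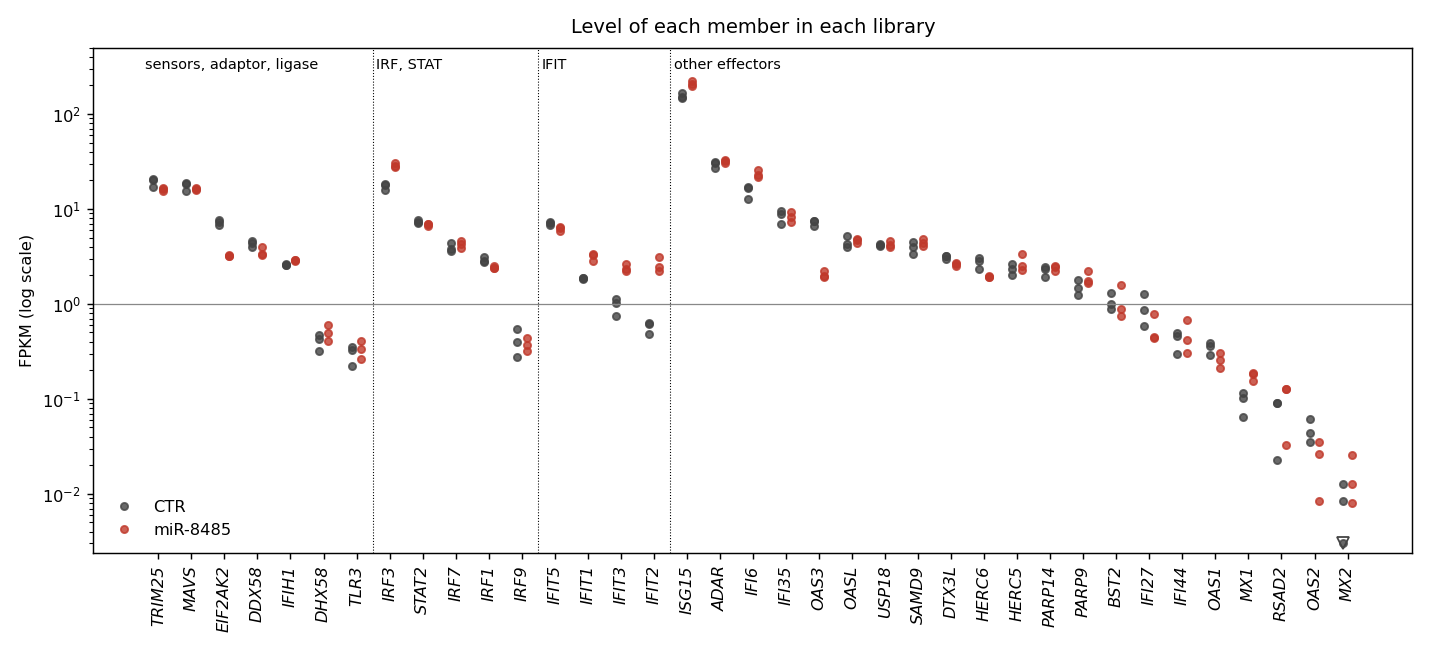
FPKM (log axis) of the 37 members with at least 10 fragments over all libraries, 1 point for each of the 3 CTR and 3 miR-8485 libraries, grouped by role and ordered by CTR level within each role. The horizontal line marks 1 FPKM, and a triangle at the bottom marks a library at 0. ISG15 lies highest, at 147 to 221 FPKM, and MX2 lowest.

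The seed matches listed above were set beside these values as a description. Of the 6 tested members with a match, OAS3, EIF2AK2, IFIT5 and DTX3L fell, IFIT1 rose, and PARP14 was not called (log2 fold change 0.11). Of the 21 without one, 4 fell (DDX58, TRIM25, IRF1 and HERC6), 5 rose and 12 were not called. Among all tested genes with an annotated 3′ UTR, 44.1% of the 3224 with a match and 29.2% of the 7450 without one fell. With at least 4 copies, 394 of 695 genes fell (56.7%), and OAS3 and EIF2AK2 were the 2 members in that class. The cut of 4 was not planned and equals the count in EIF2AK2, so this class is a description only. The length of the 3′ UTR, with a median of 1459 bases over these tested genes, was not taken into account. OAS3 (19 copies in 6487 bases) had -1.76 and EIF2AK2 (4 copies in 8063 bases) -1.15, beside -0.19 for IFIT5 (3 copies in 2872 bases) and -0.24 for DTX3L (2 copies in 3456 bases). IFIT1 (2 copies in 2775 bases) had 0.73 and PARP14 (1 copy in 2243 bases) 0.11. In the 5 other lists given below, 5 tested genes had at least 4 copies, and 4 of them fell and 1 rose (median -0.49). Whether the number of copies had a part in these values was not tested.

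**Figure D4:**
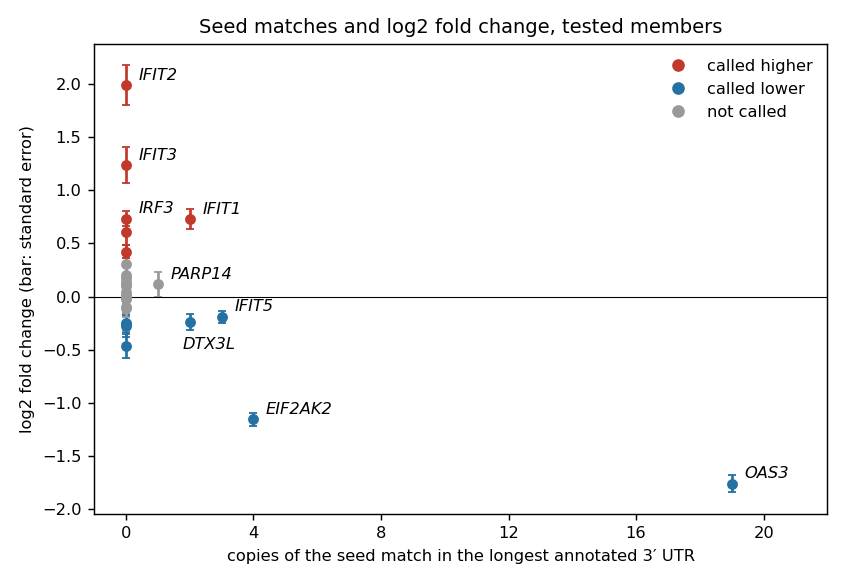
Copies of the seed match in the longest annotated 3′ UTR (x axis) against the log2 fold change with its standard error (y axis) for the 27 tested members, colored by limma call. OAS3 (19 copies) and EIF2AK2 (4 copies) lie lowest, while IFIT1 lies above 0 with 2 copies and 21 members stand at 0 copies over a range from -0.47 to 1.99.

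Other genes of the pathway were taken from lists that were written with earlier results of these data known. Of 17 receptor and JAK-STAT genes, 15 were tested, and 4 rose and 8 fell (median log2 fold change -0.34), where 29.1% of all tested genes rose and 30.5% fell. PTPN6, a phosphatase that restrains receptor signals, rose with a log2 fold change of 0.28 (limma adjusted p = 0.0058). IFNLR1, the receptor of type III interferons, fell from 4.27 ± 0.0913 to 1.70 ± 0.328 FPKM (SD, n = 3), with a log2 fold change of -1.29 (adjusted p = 1.8e-04). SOCS1, an inhibitor of JAK kinases, fell with -1.10 (adjusted p = 7.7e-04).

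In the relay from the sensors to IRF3, all 18 genes were tested, and 4 rose and 6 fell (median -0.0079), beside the same 29.1% and 30.5% of all tested genes. TRAF3, the ubiquitin ligase between MAVS and the kinases that activate IRF3, fell from 6.29 ± 0.176 to 2.47 ± 0.172 FPKM (SD, n = 3), with a log2 fold change of -1.31 (limma adjusted p = 9.6e-06). AZI2, an adaptor of the same kinases, fell by 0.38, a call lost without any 1 of 4 of the libraries. TRADD and NLRX1, an adaptor and a mitochondrial regulator of MAVS, rose with log2 fold changes of 0.89 and 0.65. Of 19 other proteins, most of which bind double-stranded RNA, 3 rose and 7 fell (median -0.10), against 29.1% and 30.5%. ZNFX1, a helicase that senses viral RNA, rose with 0.62. The helicases DDX3X and DHX15 fell by 0.66 and 0.42.

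Of 40 further interferon-stimulated genes, 23 were tested, and 10 rose and 6 fell (median 0.19), against 29.1% and 30.5% of all tested genes. IFITM1 and IFITM2, membrane proteins that block virus entry, rose with log2 fold changes of 1.57 and 0.80, and IFITM3 with 0.33. IFITM1 had a CTR mean under 1 FPKM and passed the filter through its miR-8485 values, and the fit of all genes above 0 gave adjusted p = 0.0034. The 3 IFITM genes are related in sequence, and how fragments shared between them were counted is not given in the sources used here. LAMP3, a lysosomal membrane protein, and TDRD7, an inhibitor of autophagy, had -1.58 and -1.22 and fell. LAMP3 passed the filter through its CTR values, and the fit of all genes above 0 gave adjusted p = 0.0032. The 12 of these 40 genes that lay below 1 FPKM and the 5 with fewer than 10 fragments were not tested.

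**Figure D5:**
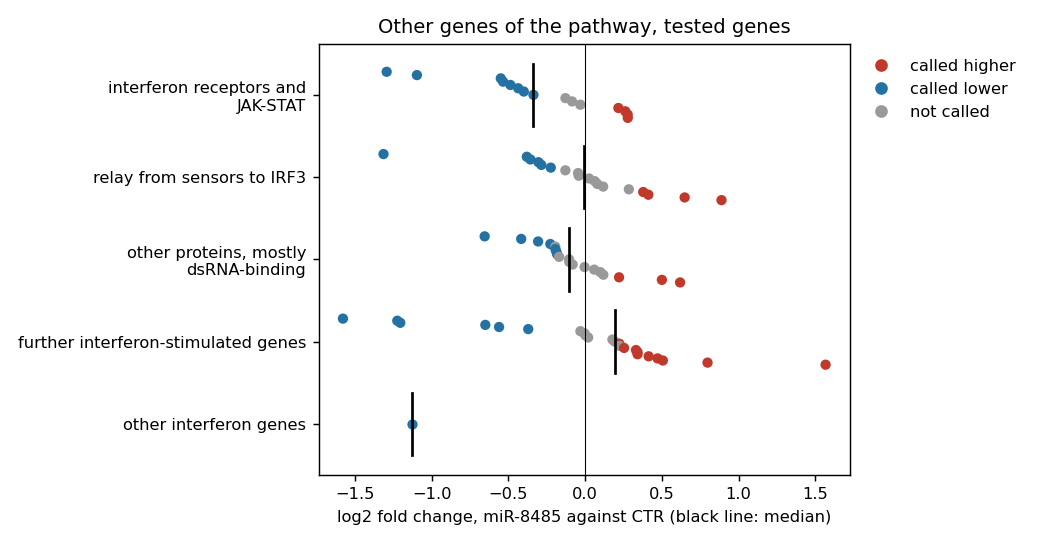
Log2 fold change of the tested genes in 5 other lists of the pathway, 1 point per gene, colored by limma call, with a black line at the median of each list. Every list with more than 1 tested gene holds points on both sides of 0, with medians from -0.34 to 0.19.

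An FPKM value depends on the rest of its library. Rescaling to TPM moved the median over all tested genes to -0.12 on the log2 scale, and the share of rises among all calls went from 48.8% to 35.6%. Under TPM, 6 members rose and 10 fell, with MAVS and STAT2 added to those that fell. None of the 14 called members changed direction under this or any other setting that was run.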

How the data were processed

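Libraries of HCT116 cells, 3 CTR and 3 miR-8485, were grouped by their titles. The authors trimmed with fastp, used HISAT2 2.0.5 and hg38 for mapping, and counted fragments per gene with featureCounts 1.5.0-p3. The values deposited by the authors are FPKM, fragments divided by gene length and library total, in a table whose columns also hold gene length. Fragments were recovered as whole multiples (tolerance 0.01) of the value of 1 fragment. The study tested counts. Here log2(FPKM + 0.1) was tested two-sided by limma 3.58.1 (R 4.3.3, variance trend, Benjamini-Hochberg adjustment) for genes with a mean of at least 1 FPKM. Members below were fitted with all 31768 genes above 0. On simulated libraries of 12395 genes, limma recovered 93 of 97 genes changed by 1 and 95 of 96 changed by 2 on the log2 scale, with 8 false calls. The simulation gave every gene the same dispersion and changed no other genes, whereas 59.6% of all tested genes were called in the data. It therefore cannot say how reliable calls of smaller changes are. The members and lists were chosen with earlier results of these data known. The labels give only replicate numbers, and the supplementary methods describe 3 independent biological replicates.

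Per-library values were given for called members with an absolute log2 fold change of at least 0.5, the largest change per role, calls that 1 library decides, and low members without overlap. Those of the other members were chosen after their values were seen. From each list the 2 largest rises and falls are named, except for items not reported here, and IFITM3 was added afterwards. Alternatives were pseudocounts of 1 and 0.01, other filters (none, 5 FPKM), median-of-ratios, quantile, TPM and gene length scalings, no variance trend, voom on recovered fragments, a replicate block and each library left out. The replicate numbers did not pair the libraries (correlation of deviations between same-numbered libraries -0.064 to 0.067). Python 3.11.15 and pandas 2.3.3 made the summaries.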

Additional observations from a re-analysis of the deposited data

How the results depend on the processing

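Of the 14 members called, OAS3, EIF2AK2, IRF3, IFIT1, IFIT2, IFIT3, ISG15, IFI6 and HERC6 kept their direction and their call under every alternative that tested them. The count of 6 members that rose was 6 with each library left out and 3 under the filter of at least 5 FPKM, which tested only 6 of the 14 called members. The count of 8 that fell ranged from 4 to 7 with each library left out. It was 5 with the gene length trend removed, 4 without a filter and 3 under the filter of 5 FPKM. The count of 8 was 5 without CTR replicate 2, 4 without CTR replicate 3, 4 without miR-8485 replicate 1 and 5 without miR-8485 replicate 3. In the fit with the replicate block, 6 members rose and 6 fell, and the calls of DTX3L and IRF1 were lost. Over all tested genes, 3593 rose and 3769 fell, 3124 to 3561 and 3382 to 3663 with each library left out, and 2303 and 2417 under the filter of 5 FPKM. The replicate block gave 3634 and 3754 over all genes. DDX58 was lost under quantile normalization, TRIM25 with the length trend removed, and IFIT5 in voom with a minimum of 10 fragments, where IFI27 and PARP9 were called. ADAR was called with the length trend removed. Except for the filter of 5 FPKM, the causes of these shifts were not tested. Members with fewer than 50 fragments per library are limited by counting error.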
